A study of Mus musculus with 15 samples.

Results

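The relation between promoter H3K4me3 and RNA level was described across 20317 genes of male TT2 cells, wild-type mouse embryonic stem cells of the strain background C57BL/6 x CBA. A gene was included when its symbol was present both in the deposited table of H3K4me3 at transcription start sites, which holds 25727 genes, and in the deposited table of RNA levels, which holds 22035 genes. The members make up 20317 of 27445 genes in either table. The series holds 15 libraries in all, of which 7 bear on this relation. These are H3K4me3 from 5000, 10000 and 100000 cells, ribosomal RNA-depleted total RNA from 1000 cells, and H3K27me3 from 1000, 10000 and 100000 cells. Chromatin was immunoprecipitated without crosslinking from cells sorted into nuclear isolation buffer. Each group is 1 library of the same untreated line, so no difference between libraries has a replicate check and no test across samples could be made. Levels are RPKM, reads per kilobase per 1000000 reads, so that RNA and mark levels are compared between genes per length throughout.

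H3K4me3, trimethylation of lysine 4 of histone H3, is laid down at promoters by the SET1 and MLL methyltransferase complexes. In embryonic stem cells it marks the start sites of most transcribed genes, and CpG-rich promoters carry it at a low level even where transcription is scarce. H3K27me3, the mark of Polycomb repressive complex PRC2, lies together with H3K4me3 at many promoters of developmental regulators in these cells, an arrangement called bivalent. Clustered histone genes, whose transcripts end in a stem loop and carry no poly(A) tail, are present in total RNA after ribosomal depletion.

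For each gene the 1 kb window with the highest mean H3K4me3 over the 3 libraries and the transcript row with the highest RNA were taken. The H3K4me3 libraries held 1.857, 1.067 and 16.61 M reads (M, 1000000) at 5000, 10000 and 100000 cells, as recovered from the steps between the deposited values. A single read in a window was therefore worth 0.539, 0.938 and 0.0602 RPKM. A count of 3 reads, the level that a count of 0 allows, came to 1.62, 2.81 and 0.181 RPKM. The median member rested on 7, 8 and 35 reads, and 16.5%, 24.3% and 2.41% of members were at 0. The depth of the RNA library is unknown. The highest window in the table was 49.55 RPKM at 5000 cells, 99.38 at 10000 and 49.21 at 100000, so no deposited value exceeded 50, 100 and 50 RPKM. Within 10% of these limits lay 61, 148 and 0 members. Whether higher values were left out is not given in the sources used here. Genes with no window in the table are not members, and among genes with RNA of 100 RPKM and over these were 13.6%. The labelled cell type was checked on its markers: all 9 embryonic stem cell markers measured had RNA between 15.01 and 221.8 RPKM, while 1 of 10 fibroblast markers exceeded 1 RPKM, at 1.79, and 6 were at 0. On a wider list of 25 fibroblast genes, described with the other lists further on, 6 had RNA of at least 1 RPKM and 3 of at least 10 RPKM, with Fn1 (38.45 RPKM) and Sparc (33.72 RPKM) among them.

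The promoters of 8 genes that mark out the pattern are printed from RefSeq (GRCm38.p6), from 250 bases before to 50 bases after the start, 5′ to 3′ on the gene's strand, with every CpG in capitals. Cdk12 and Rps10 had both the mark and RNA. Hnrnpk and Hcn4 had a strong mark and almost no RNA listed. The Hnrnpk window also holds the start of Rmi1, another gene with RNA. Klf12 and Triml1 had much RNA and a mark in the lowest 25% of members. Hist1h4d had 519.5 RPKM of RNA with a mean mark of 3.70 RPKM, low only for its RNA. The median mark of members with RNA of 100 RPKM and over was 24.4 RPKM. Hoxd8 was listed at 0 for RNA with a mean mark of 7.05 RPKM, above the member median of 4.51 RPKM.
Cdk12 (chr11:98203055-98203354, + strand): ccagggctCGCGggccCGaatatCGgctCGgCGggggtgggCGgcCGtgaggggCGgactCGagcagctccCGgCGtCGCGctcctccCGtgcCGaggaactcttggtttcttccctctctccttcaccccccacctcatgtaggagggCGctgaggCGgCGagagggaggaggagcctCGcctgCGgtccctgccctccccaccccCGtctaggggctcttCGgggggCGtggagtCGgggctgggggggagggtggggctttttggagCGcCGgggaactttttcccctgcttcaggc
Rps10 (chr17:27635195-27635494, - strand): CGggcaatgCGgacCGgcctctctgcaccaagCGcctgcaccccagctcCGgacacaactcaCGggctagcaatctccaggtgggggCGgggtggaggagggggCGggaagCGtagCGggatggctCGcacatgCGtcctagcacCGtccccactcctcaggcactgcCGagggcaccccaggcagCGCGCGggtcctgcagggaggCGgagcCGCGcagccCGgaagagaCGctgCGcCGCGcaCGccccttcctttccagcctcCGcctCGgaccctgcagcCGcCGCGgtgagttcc
Hnrnpk (chr13:58402068-58402367, - strand): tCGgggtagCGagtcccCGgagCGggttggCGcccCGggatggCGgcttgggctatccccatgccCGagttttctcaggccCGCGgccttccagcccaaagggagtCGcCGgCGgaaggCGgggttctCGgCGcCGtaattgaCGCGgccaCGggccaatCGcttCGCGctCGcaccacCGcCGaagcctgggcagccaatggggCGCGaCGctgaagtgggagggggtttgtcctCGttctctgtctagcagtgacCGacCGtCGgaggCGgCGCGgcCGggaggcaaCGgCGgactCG
Hcn4 (chr9:58822699-58822998, + strand): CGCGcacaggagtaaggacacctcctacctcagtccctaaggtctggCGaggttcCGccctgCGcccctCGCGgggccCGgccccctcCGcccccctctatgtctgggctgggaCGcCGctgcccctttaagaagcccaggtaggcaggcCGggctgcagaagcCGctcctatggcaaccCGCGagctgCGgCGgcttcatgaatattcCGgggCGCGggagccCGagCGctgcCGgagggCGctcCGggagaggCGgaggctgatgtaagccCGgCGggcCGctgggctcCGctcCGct
Hist1h4d (chr13:23581318-23581617, + strand): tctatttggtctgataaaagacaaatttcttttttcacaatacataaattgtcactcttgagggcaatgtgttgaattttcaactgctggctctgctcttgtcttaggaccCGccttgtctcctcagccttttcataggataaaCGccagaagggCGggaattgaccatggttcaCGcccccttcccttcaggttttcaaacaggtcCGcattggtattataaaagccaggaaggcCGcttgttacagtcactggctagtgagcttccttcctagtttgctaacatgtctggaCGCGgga
Klf12 (chr14:100149747-100150046, - strand): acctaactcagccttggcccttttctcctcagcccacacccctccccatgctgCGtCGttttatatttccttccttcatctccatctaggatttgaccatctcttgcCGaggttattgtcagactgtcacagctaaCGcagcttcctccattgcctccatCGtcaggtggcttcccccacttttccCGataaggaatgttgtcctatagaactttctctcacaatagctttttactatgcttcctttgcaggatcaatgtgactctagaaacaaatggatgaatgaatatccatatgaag
Triml1 (chr8:43141437-43141736, - strand): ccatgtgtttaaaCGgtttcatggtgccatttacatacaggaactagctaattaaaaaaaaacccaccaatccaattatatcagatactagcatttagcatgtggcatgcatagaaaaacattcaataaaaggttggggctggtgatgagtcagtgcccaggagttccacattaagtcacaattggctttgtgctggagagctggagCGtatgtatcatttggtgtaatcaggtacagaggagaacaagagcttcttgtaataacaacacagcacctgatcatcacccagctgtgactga
Hoxd8 (chr2:74704365-74704664, + strand): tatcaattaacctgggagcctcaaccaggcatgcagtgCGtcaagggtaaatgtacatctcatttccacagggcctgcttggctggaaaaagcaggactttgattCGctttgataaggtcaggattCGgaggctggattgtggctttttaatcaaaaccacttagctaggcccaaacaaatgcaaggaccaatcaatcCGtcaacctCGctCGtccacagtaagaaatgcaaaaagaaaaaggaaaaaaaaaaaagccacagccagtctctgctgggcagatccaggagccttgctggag

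The CpG content of these sequences differs widely. Hnrnpk holds 40 CpGs in 300 bases, Rps10 and Hcn4 31 each and Cdk12 27. Hist1h4d holds 8, Klf12 and Hoxd8 6 each, and Triml1 2. The promoter of Hist1h4a, another histone gene with much RNA, holds 27, as many as that of Cdk12. Hist1h4a had a mean mark of 4.69 RPKM at 179.3 RPKM of RNA. That is above the member median but below the 24.4 RPKM of members with RNA of 100 RPKM and over. Few CpGs are therefore not shared by all histone genes with much RNA.

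H3K4me3 was higher in genes with more RNA, over the lower and middle part of the RNA range. Across the 20317 genes the Spearman correlation of the mean H3K4me3 with RNA was 0.785. It was 0.763, 0.774 and 0.760 for the libraries of 5000, 10000 and 100000 cells. These are correlations across genes within single libraries, and the genes share the depth of those libraries and the same RNA values, so no p is given. The libraries themselves correlated across genes at 0.932 between 5000 and 10000 cells, 0.917 between 5000 and 100000 cells and 0.927 between 10000 and 100000 cells. Among the chromosomes the correlation ran between 0.704 on chromosome 12 and 0.821 on chromosome 7.

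In classes of RNA level the median of the mean H3K4me3 was 0.28 RPKM in the 3891 genes listed at 0 and 0.673 RPKM in 2009 genes above 0 and under 0.1 RPKM. The median was 1.71 RPKM in 3815 genes between 0.1 and 1 RPKM and 10.09 RPKM in 6798 genes between 1 and 10 RPKM. Above that it was 20.6 RPKM in 3709 genes between 10 and 100 RPKM and 24.4 RPKM in the 95 genes of 100 RPKM and over. The widest step in RPKM was that between the classes of 1 to 10 and 10 to 100 RPKM of RNA, and the largest ratio of neighbouring medians that between 0.1 to 1 and 1 to 10 RPKM. The median at 10 RPKM and over exceeded that under 0.1 RPKM by 5.43 on the log2 scale with 0.1 RPKM added. Leaving out libraries in turn gave differences between 4.55 and 6.23.

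**Figure D1:**
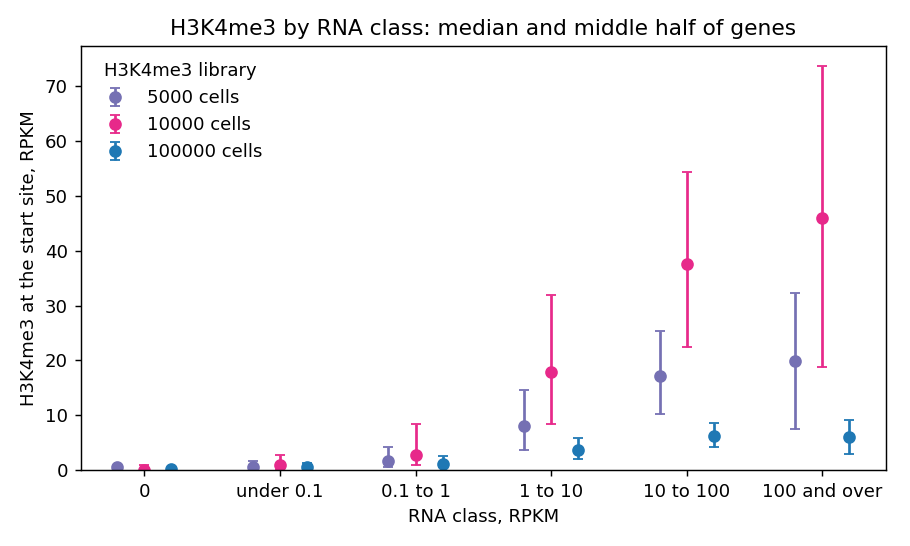
H3K4me3 in the highest start-site window (vertical axis, RPKM) for genes in 6 classes of RNA level (horizontal axis, RPKM), with points at the median and bars over the middle 50% of genes in each H3K4me3 library. In every library the median is higher at 1 to 10 RPKM of RNA than at 0.1 to 1, and between 10 to 100 and 100 and over it is close to level at 100000 cells, at 6.2 and 6.02 RPKM.

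Each library showed this order up to 100 RPKM, with different ranges, except that at 5000 cells the lowest 2 classes had equal medians. At 100000 cells the medians of the classes, from RNA of 0 upwards, were 0.24, 0.66, 1.2, 3.73, 6.2 and 6.02 RPKM. At 10000 cells they were 0, 0.94, 2.81, 17.81, 37.5 and 45.94 RPKM. At 5000 cells they were 0.54, 0.54, 1.62, 8.08, 17.23 and 19.93 RPKM. The lowest medians of the 2 smaller libraries are at or under the level of 1 read.

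Within the expressed range the mark followed RNA level only loosely. The correlation was 0.697 among the 16426 genes with RNA above 0, 0.481 among 10602 genes of at least 1 RPKM and 0.162 among 3804 genes of at least 10 RPKM. Below 1 RPKM it was 0.555 with the genes at 0 and 0.322 without them. Protein-coding genes gave 0.791 (19615 genes) and long noncoding RNA genes 0.491 (443 genes). The transcript row overlapped a row of another gene in 42.9% of the long noncoding RNA genes and 12.2% of the protein-coding genes. What part such overlap has in the difference was not tested. The deposited H3K4me3 values have upper limits, near which 148 members lay at 10000 cells, and genes without a window are left out. The subsets by RNA also span less of the RNA range. What part these limits have in the lower correlation among genes with much RNA was not tested.

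Reading the relation from the mark gave steep steps. In 4 equal groups of genes by H3K4me3, divided at 0.573, 4.51 and 14.84 RPKM, 6.81%, 29.4%, 78.5% and 94.1% of genes had RNA of at least 1 RPKM, against 52.2% of all members. Median RNA in these groups was 0, 0.33, 3.5 and 10.23 RPKM. The middle 50% of genes in the top 25% had RNA between 4.87 and 19.07 RPKM.

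The 10 genes with the highest mark all had RNA in the top 25% of members, between 7.39 and 114.4 RPKM. The upper limits of the deposited values bound this ranking, since all 10 lay close to 100 RPKM in the 10000-cell library. Thap4 and Atg4b, a head-to-head pair whose windows overlap, had the highest means of 55.15 and 55.05 RPKM with RNA of 13.77 and 7.39 RPKM. Next were Cdv3 (53.45 RPKM), Mkrn1 (53.41 RPKM), which encodes a RING finger protein, and Cdk12 (53.29 RPKM), the kinase of the RNA polymerase II tail. Cdk12 had 45.24, 99.38 and 15.24 RPKM at 5000, 10000 and 100000 cells, from 84, 106 and 253 reads, with RNA of 40.45 RPKM. Tsr1, 1110008F13Rik, Vps35, Hdgf and Ube2g1 completed the 10 highest, between 52.9 and 53.12 RPKM, with RNA between 12.12 and 114.4 RPKM.

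The genes with the highest listed RNA values were not those with the most mark. Cdk8, a kinase of the Mediator complex, had 13336 RPKM of RNA with 35.89 RPKM of H3K4me3, and Zc3h7a had 7635 RPKM with 24.38 RPKM. Gphn, Lars2, Camk1d and Jarid2 had between 1071 and 3039 RPKM of RNA with H3K4me3 between 12.75 and 18.85 RPKM. Eef1a1, the translation elongation factor, had 749 RPKM of RNA and 50.18 RPKM of the mark. Il31ra, a cytokine receptor gene, had 729 RPKM of RNA with 0.54, 1.88 and 0.42 RPKM of H3K4me3 at 5000, 10000 and 100000 cells, which is 1, 2 and 7 reads. These RNA values come from 1 library, and how reads that match several places were counted is not given in the sources used here. Whether the highest values reflect transcripts of the genes named was not tested.

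**Figure D2:**
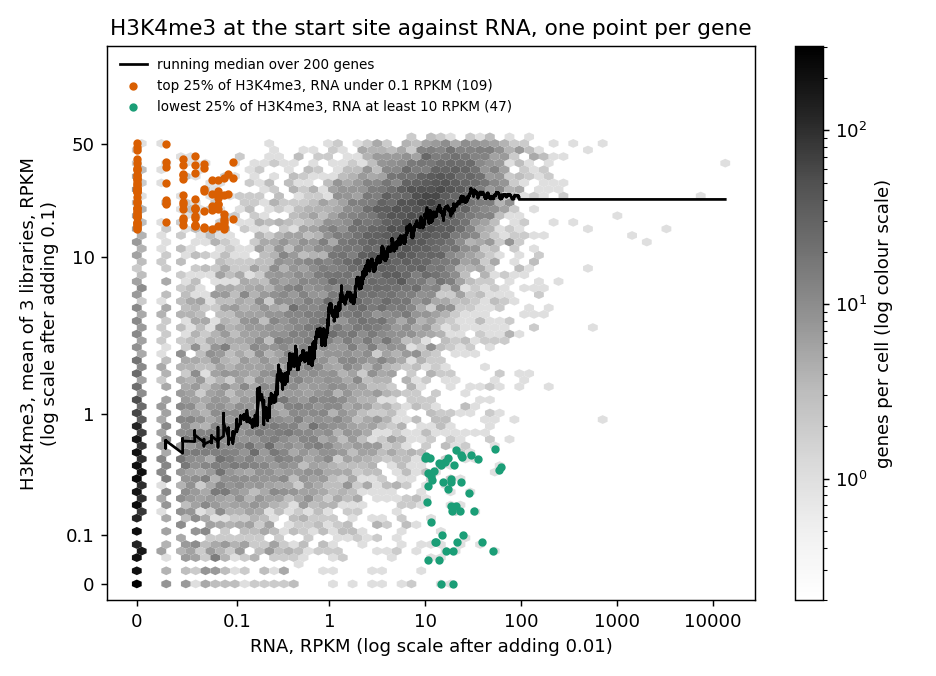
Mean H3K4me3 of 3 libraries (vertical axis, RPKM) against RNA (horizontal axis, RPKM), both on log scales, with grey cells shaded by the number of genes and the running median over 200 genes of like RNA as a black line. Orange points are the 109 genes in the top 25% by H3K4me3 with RNA under 0.1 RPKM, green points the 47 genes in the lowest 25% with RNA of at least 10 RPKM, and the line flattens above 10 RPKM of RNA.

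A group of 109 genes lay in the top 25% by H3K4me3 with RNA under 0.1 RPKM. They are 0.536% of all members, and 44 of them were listed at 0 for RNA. Both values chose these genes, so their levels are a description. All 109 were above the member median in each of the 3 H3K4me3 libraries. The gene just inside the limit was BC037032 at 14.84 RPKM, and the gene just outside was Slc16a6 at 14.73 RPKM. Their median H3K4me3 was 22.1 RPKM, against 23.6 RPKM in the other 4971 genes of the top 25%, whose median RNA was 10.5 RPKM.

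Ptbp1, a splicing regulator, had H3K4me3 of 43.63, 98.44 and 10.42 RPKM at 5000, 10000 and 100000 cells, with RNA listed at 0. Hnrnpk, an RNA-binding protein of the nucleus, had 45.24, 80.63 and 12.23 RPKM of the mark and was also listed at 0. Vdac2, a channel of the outer mitochondrial membrane, had 29.62, 66.56 and 14.57 RPKM with RNA of 0.02 RPKM. In each of these genes every library stood far above its own member median of 3.77, 7.5 and 2.11 RPKM. Others of the 15 with the most mark were Yrdc (49.58 RPKM, mean of 3 libraries), Ergic2 (47.88 RPKM), Spata2 (42.24 RPKM), Pomt2 (40.33 RPKM) and Znfx1 (40.1 RPKM). Med9, Siah1a, Il4i1, Rasal2, Ccdc55, Vdac2, Elac2 and Pcsk7 lay between 35.53 and 38.61 RPKM. The windows of Hnrnpk, Yrdc, Ergic2, Spata2, Pomt2, Znfx1, Il4i1 and Rasal2 also hold the start of another gene with RNA of at least 1 RPKM. The mark there cannot be assigned to either gene. For Il4i1 and Rasal2 the transcript row began in another window of the gene than the one measured. An RNA value listed at 0 may be a failed estimate, and how RNA was assigned where transcripts overlap is not given in the sources used here.

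The 109 genes share a feature that the values did not choose, the position of their transcripts. The transcript row of 94 of them (86.2%) overlapped a row of another gene, and in 93 (85.3%) the overlapping row lay on the opposite strand. In the other genes of the top 25% 14.7% overlapped another row and 11.1% overlapped one on the opposite strand. Where several rows overlapped, the one with the most RNA was taken as the partner, which can only raise the partner values. Of the 94 partners 71 had RNA of at least 1 RPKM, which 52.2% of all members have. Another 6 had under 0.1 RPKM, which 29% of all members have. The median of the partners was 3.76 RPKM, and partners of other genes with an overlap were not compared. Hnrnpk overlapped Rmi1 (7.04 RPKM of RNA), Znfx1 overlapped 1500012F01Rik (36.85 RPKM), and Elac2 overlapped Arhgap44 (17.3 RPKM). Ptbp1 overlapped BC005764 (0.45 RPKM).

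The share of genes with RNA under 0.1 RPKM, 29% of all members, was therefore read separately by overlap in each 25% of genes by H3K4me3. In the top 25% it was 14.5% (93 of 643) for genes that overlap a row on the opposite strand, 0.556% (1 of 180) for overlap on the same strand alone and 0.352% (15 of 4257) for genes with no overlap. In the third 25% the shares were 21.6%, 13% and 2.62%. In the second 25% they were 34.4%, 30.6% and 32.9%, and in the lowest 25% 43.9%, 87.7% and 77.2%. Median RNA in the top 25% was 4.22 RPKM with overlap on the opposite strand, against 10.94 RPKM with no overlap, at median H3K4me3 of 23.5 RPKM in both. Among members that overlap no other row the correlation of H3K4me3 with RNA was 0.821.

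**Figure D3:**
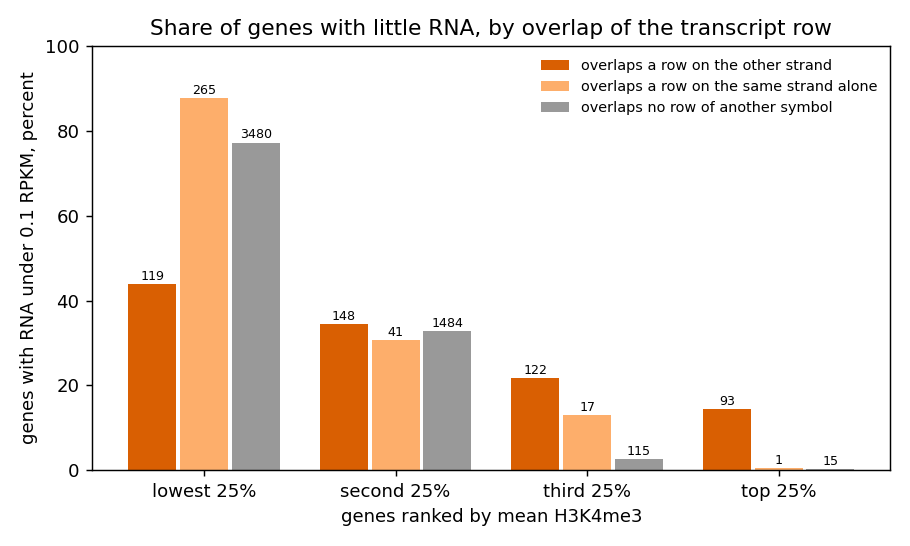
Share of genes with RNA under 0.1 RPKM (vertical axis, percent) in 4 equal groups of genes by mean H3K4me3 (horizontal axis), for genes whose transcript row overlaps one on the other strand, one on the same strand alone, or none, with the number of genes with little RNA above each bar. In the top 25% 93 of 643 genes with an overlap on the other strand had little RNA, against 15 of 4257 with no overlap.

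A start site shared with another gene was also frequent. The highest window of 47 of the 109 genes (43.1%) held the start of another gene with RNA of at least 1 RPKM, against 19.6% of the other genes of the top 25%. Fgf20, a growth factor gene listed at 0 for RNA, had 32.32, 46.88 and 8.37 RPKM of H3K4me3 in a window that holds the start of Efha2, whose RNA was 14.83 RPKM, while the Fgf20 row began in another window of the gene. Only 4 of the 109 had neither an overlapping row nor another expressed start in the window: Hcn4, Gja5, 1700056E22Rik and 2310008H09Rik, named after their values were seen. Reads in a window that holds the start of another gene, as in the 47, cannot be assigned to either gene.

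Hcn4 and Gja5 are genes of cardiac cells, coding for a pacemaker channel and a gap junction protein. Hcn4 had H3K4me3 of 16.16, 27.19 and 8.43 RPKM, from 30, 29 and 140 reads, the last with an exact 95% Poisson interval of 7.09 to 9.95 RPKM, with RNA of 0.09 RPKM and H3K27me3 of 0.70, 1.70 and 1.28 RPKM at 1000, 10000 and 100000 cells. Gja5 had H3K4me3 of 17.8, 40.3 and 4.46 RPKM with RNA of 0.05 RPKM, but its transcript row began in another window of the gene than the one measured. The row began in the highest window in the other 3 of these 4 genes. Median H3K27me3 over the 109 was 0.23, 0.15 and 0.15 RPKM at 1000, 10000 and 100000 cells, against 0.20, 0.13 and 0.15 RPKM over the other genes of the top 25%. The difference at 100000 cells, 0 over the 109, was 0.215 RPKM among members that overlap no other row (16 genes, with limits drawn anew) and 0.255 RPKM when windows with another expressed start were also left out (4 genes). Hcn4 and Fgf20 were the 2 of the 109 that reached 1 RPKM at 100000 cells, named after their values were seen.

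The opposite departure, RNA of at least 10 RPKM in the lowest 25% by H3K4me3, held 47 genes, 0.231% of members. All 47 were below the member median in each H3K4me3 library, which the limit on their mean fixes in advance. Their median H3K4me3 was 0.32 RPKM, against 20.8 RPKM in the other 3757 genes of at least 10 RPKM, and their median RNA was 18.5 RPKM, against 18.1 RPKM. Cul3 lay just inside the limit at 0.573 RPKM and Rpl27a just outside at 0.58 RPKM. At 10000 cells the median of the 47 was 0 reads, so that differences among them are not detectable in that library.

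Tet1, which oxidises methylated cytosine and is abundant in embryonic stem cells, led the set with RNA of 62.26 RPKM and H3K4me3 of 0.54, 0 and 0.72 RPKM, from 1, 0 and 12 reads. Trim30a followed with 59.21 RPKM of RNA and 0.40 RPKM of the mark. Cul3, the scaffold of an E3 ubiquitin ligase, had 53.81 RPKM of RNA and H3K4me3 of 0.54, 0.94 and 0.24 RPKM. Psmd3, a subunit of the proteasome, had 35.46 RPKM of RNA and 0.48 RPKM of the mark, and Rpl13, of the large ribosomal subunit, 39.49 and 0.08 RPKM. The rest of the 15 with the most RNA were Gm5506, Hist1h4n, Klf12, Pla2g1b, 2610044O15Rik, Zc3h18, Pign, Triml1, Zfp936 and Nutf2. Their RNA lay between 21.72 and 50.82 RPKM and their mean H3K4me3 between 0.06 and 0.52 RPKM.

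In many of these genes the measured window was not at the start of the measured transcript. The transcript row began outside all of the gene's own windows in 22 of the 47 (46.8%), Cul3, Psmd3, Rpl13 and Zc3h18 among them, against 2.24% of the other genes with RNA of at least 10 RPKM. The row began inside the highest window in 42.6% of the 47 and in 89.1% of the others. For Tet1 and Trim30a it began in another window of the gene than the highest. In 4 genes, Gm5506, Rpl13, Nutf2 and Gm7334, window and transcript lay on different chromosomes, which is the case for 12 members in all. Gm5506 overlaps Eno1 and Nutf2 overlaps Nutf2-ps1, copies of like sequence between which reads may have been split.

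With the window nearest the start of the transcript row taken in place of the highest, 91 genes met the criteria in place of 47. With members limited to rows that start inside a window of the gene there were 28, and off chromosomes 1, 8 and 11 there were 31.

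In 11 of the 47 genes the transcript began in the highest window, overlapped no other row and shared no window with another expressed start. These are Hist1h4n, Klf12, Pla2g1b, Triml1, Tsnax, Rapgef5, Metap2, Osbpl10, Gpr133, Tex21 and Hpse2, named after their values were seen. Klf12, a zinc finger repressor, had RNA of 30.18 RPKM and H3K4me3 of 1.08, 0 and 0.48 RPKM, from 2, 0 and 8 reads, where a count of 0 at 10000 cells allows up to 2.81 RPKM. Triml1 had 23.59 RPKM of RNA and H3K4me3 of 0.54, 0 and 0.42 RPKM. Pla2g1b, a secreted phospholipase, had 28.92 RPKM of RNA and 0.26 RPKM of the mark. Metap2, a methionine aminopeptidase, had 15.11 and 0.10 RPKM. Tsnax, of the translin complex, was at 0 in all 3 H3K4me3 libraries and also at 0 for H3K27me3, with RNA of 19.34 RPKM. Median H3K27me3 over the 47 was 0.25, 0.16 and 0.17 RPKM at 1000, 10000 and 100000 cells, against 0.20, 0.12 and 0.14 RPKM in the other genes with RNA of at least 10 RPKM.

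Lists of genes by function were then set against the running median of H3K4me3 over the 200 members nearest in RNA, above which 49.8% of members lay, and below which 49.7% lay. Deviations are log2 ratios to that median with 0.1 RPKM added. The middle 50% of all members lay between −0.93 and 0.75.

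Histone genes had the lowest median deviation among the 25 lists apart from the Y-linked genes. Of 75 histone genes 61 lay below the running median and 38 at least 4-fold below it, which 8.64% of members do. Their median deviation was −2.06, with median H3K4me3 of 4.26 RPKM and median RNA of 45.3 RPKM. Among the 56 with RNA of at least 10 RPKM the median H3K4me3 was 4.83 RPKM, against 20.6 RPKM for all 3804 members at that level. Hist1h4d had 519.5 RPKM of RNA with 2.69, 7.5 and 0.9 RPKM of the mark, Hist2h2bb 265.6 RPKM with a mean of 7.18 RPKM, Hist1h4a 179.3 RPKM with 4.69 RPKM and Hist1h3e 157.7 RPKM with 4.26 RPKM. The replacement-type histone genes H2afz (38.1 RPKM), H2afy (34.84 RPKM) and H3f3a (32.9 RPKM) had much higher H3K4me3 at RNA between 25.98 and 61.44 RPKM. TATAAA, searched on both strands as TATAAA and TTTATA, was present in 53.7% of the histone promoters matched (36 of 67), against 14.2% of members matched and 13.6% of all 32851 promoters in the RefSeq table. Clustered histone genes are near-identical copies, so reads may have been divided among them.

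Ribosomal protein genes lay on the other side. Of 78 genes 65 were above the running median, 66 were in the top 25% by H3K4me3 and 76 had RNA of at least 1 RPKM. The median deviation was 0.90, with median H3K4me3 of 37.6 RPKM at median RNA of 15.7 RPKM. In the libraries of 5000, 10000 and 100000 cells taken alone the deviation was 1.01, 1.01 and 0.42. Even the 22 with RNA between 1 and 10 RPKM had a median mark of 35.8 RPKM, against 10.09 RPKM in all members of that class. Rps10 had 45.24, 97.5 and 13.37 RPKM of H3K4me3 with 21.31 RPKM of RNA, Rpl13a a mean of 50.19 RPKM with 10.41 RPKM and Rps16 49.99 RPKM with 3.99 RPKM. Rplp1, with 242.8 RPKM of RNA, had 41.92 RPKM of the mark. Many ribosomal protein genes have processed copies elsewhere in the genome, and how reads that match several copies were counted is not given in the sources used here. The single member in the lowest 25% was Rpl13.

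Oxidative phosphorylation genes were split about evenly by the running median. Of 85 genes 44 lay above it and 41 below, with median H3K4me3 of 17.8 RPKM and RNA of 14.6 RPKM. Atp5b, a subunit of ATP synthase, had 49.24 RPKM of the mark and 113.2 RPKM of RNA, and Atp5f1, whose window also holds the start of Wdr77, had 47.18 RPKM of the mark and 2.96 RPKM of RNA. Of 32 glycolysis and housekeeping genes 20 lay above and 12 below. Gapdh had 49.91 RPKM of H3K4me3 with RNA of 26.02 RPKM, and Hsp90ab1 8.54 RPKM with 489.1 RPKM.

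Most pluripotency genes lay below the running median for their RNA. All 34 had RNA of at least 1 RPKM and 24 at least 10 RPKM, which 18.7% of members have. Of the 34, 25 lay below the running median and 9 above, with a median deviation of −0.61. Zfp42 (Rex1), a marker of the naive state, had 221.8 RPKM of RNA and 15.99 RPKM of the mark, and Trim28 118.7 and 8.56 RPKM. Klf2, Klf5, Stat3 and Esrrb had the highest mark of the list, between 40.99 and 42.91 RPKM, with RNA between 10.73 and 73.8 RPKM.

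**Figure D4:**
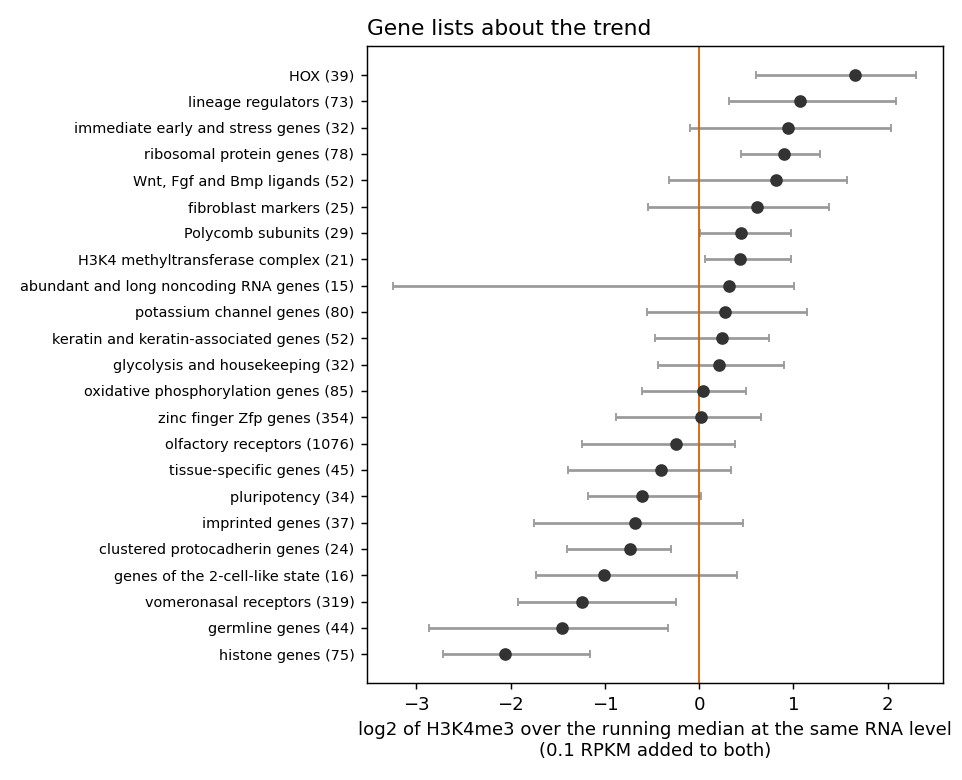
Deviation of H3K4me3 from the running median at the same RNA level (horizontal axis, log2 with 0.1 RPKM added to both) for gene lists with at least 15 members, with points at the list median, bars over the middle 50% of members and the number of genes in parentheses. Histone genes (−2.06) and germline genes (−1.45) lie lowest, and HOX genes (1.66) and lineage regulators (1.07) highest.

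Germline genes were low in the mark for their RNA. Of 44 genes 36 lay below the running median and 16 at least 4-fold below, with a median deviation of −1.45. None was in the top 25% by H3K4me3, though 22 had RNA of at least 1 RPKM. Tex14, of the germ cell intercellular bridge, had 39.86 RPKM of RNA and 12.49 RPKM of the mark. Syce2 and Hormad2, of the meiotic chromosome axis and synaptonemal complex, had 32.68 and 29.34 RPKM of RNA with 8.61 and 2.87 RPKM of the mark. Dnmt3l, a cofactor of de novo DNA methylation, had 24.71 RPKM of RNA and 5.85 RPKM of the mark. Imprinted genes, transcribed from 1 parental allele, were below the running median in 23 of 37 and above in 14. Airn had 52.9 RPKM of RNA with 2.7 RPKM of the mark, and it overlaps Igf2r. Nespas, listed at 0 for RNA with 35.14 RPKM of the mark, overlaps Gnas.

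Developmental regulators had more of the mark than other genes of as little RNA. Of 39 HOX genes 36 lay above the running median and 16 at least 4-fold above it, which 6.37% of members do, with a median deviation of 1.66. No HOX gene had RNA of 1 RPKM, none was in the top 25%, and the median H3K4me3 was 1.44 RPKM. At 5000 and 10000 cells the medians were 1.08 and 1.88 RPKM, under the level of 3 reads, and at 100000 cells 1.32 RPKM. For the 22 HOX genes listed at 0 the running median is 0.28 RPKM, the median of all 3891 genes listed at 0. Of those 3891 genes 1009 were olfactory and 275 vomeronasal receptor genes. Hoxd8 had 3.77, 14.06 and 3.31 RPKM of H3K4me3 with RNA listed at 0, Hoxa4 a mean of 6.36 RPKM with 0.04 RPKM of RNA, and Hoxd1 5.53 RPKM with 0.03 RPKM. Of 73 lineage regulators 60 lay above and 13 below, with median H3K4me3 of 2.35 RPKM and RNA of 0.10 RPKM. Pou4f1, a factor of sensory neurons, had 14.43 RPKM of the mark and 0.85 RPKM of RNA, and Eomes, of endoderm and trophoblast, 12.5 and 0.38 RPKM. H3K27me3 at 100000 cells had medians of 2.86 RPKM in the HOX genes and 2.24 RPKM in the lineage regulators, against 0.27 RPKM in all members. For Wnt, Fgf and Bmp ligands 36 of 52 lay above the running median and 10 had RNA of at least 1 RPKM.

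Immediate early and stress genes were also above, 22 of 32, with median H3K4me3 of 10.1 RPKM at RNA of 1.75 RPKM. Ier2 had 44.87 RPKM of the mark with 16.51 RPKM of RNA, Jund 29.99 with 16.63 RPKM, Dusp1 28.73 with 3.95 RPKM and Atf3 22.96 with 0.85 RPKM. Genes listed with the H3K4 methyltransferase complexes lay above in 17 of 21, and subunits of Polycomb complexes in 22 of 29. The first list is wider than the subunits and also holds Ash1l. Kdm5b, an H3K4 demethylase, had 49.68 RPKM of the mark and 52.86 RPKM of RNA. Mll5 had 36.27 RPKM of the mark and 0.14 RPKM of RNA, and its row overlaps Srpk2. Suz12, a core subunit of PRC2, had 37.34 RPKM of the mark and 64.78 RPKM of RNA.

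Olfactory and vomeronasal receptor genes lay at the bottom of both scales. Of 1076 olfactory receptor genes 964 were in the lowest 25% by H3K4me3, none in the top 25% and 1 had RNA of at least 1 RPKM. Olfr94 had the highest mark, at 3.03 RPKM. Of 319 vomeronasal receptor genes 299 were in the lowest 25%. The highest, Vmn1r90, had 6.44 RPKM of the mark with 4.2 RPKM of RNA. Tissue-specific genes such as Snap25 and Mbp had a median H3K4me3 of 0.52 RPKM, and 3 of 45 had RNA of at least 1 RPKM. Keratin and keratin-associated genes had a median of 0.537 RPKM, with 27 of 52 in the lowest 25%, and 24 clustered protocadherin genes a median of 0.24 RPKM. Fibroblast and potassium channel genes lay higher. The 25 fibroblast genes had a median H3K4me3 of 1.78 RPKM, 14 of them above the running median, and included Fn1, with 38.45 RPKM of RNA and 22.25 RPKM of the mark, and Sparc, with 33.72 and 2.53 RPKM. The 80 potassium channel genes had a median of 2.01 RPKM, 50 of them above the running median and 16 with RNA of at least 1 RPKM.

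Zfp zinc finger genes spread over the whole plane. Of 354 genes 180 lay above the running median and 174 below, 288 had RNA of at least 1 RPKM, 92 were in the top 25% by H3K4me3 and 41 in the lowest. Zfp207 had 48.19 RPKM of the mark and 53.62 RPKM of RNA, and Zfp532 4.79 and 60.33 RPKM. Of the 16 measured genes of the 2-cell-like state 14 were in the lowest 25% and 1, Eif1a, had RNA of at least 1 RPKM, at 46.42 RPKM. Of 9 Y-linked genes 8 were in the lowest 25% and all 9 lay below the running median. Their median was 0.06 RPKM of the mark and 0.05 RPKM of RNA. Ddx3y had 0.06 RPKM of the mark and 0.28 RPKM of RNA, and Eif2s3y 0.28 and 0.29 RPKM. Uty, with 2.19 and 3.65 RPKM, was the only 1 with RNA of at least 1 RPKM. The line is described as male, and why these values are low was not tested. Small RNA genes had 7 members, and the abundant and long noncoding RNA genes 15, among them Snhg3 (42.11 RPKM of the mark, 146.2 RPKM of RNA) and Malat1 (28.35 and 246.7 RPKM).

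RNA was also set against H3K27me3 within groups of like H3K4me3. H3K27me3 of at least 1 RPKM in both the 10000-cell and the 100000-cell library was present in 1735 members (8.54%), in 4.86%, 19.07%, 9.08% and 1.14% of genes from the lowest to the top 25% by H3K4me3. In the third 25% 37.5% of the 461 genes with H3K27me3 had RNA of at least 1 RPKM, against 82.6% of the 4616 without. In the second 25% the shares were 11.1% with H3K27me3 and 33.7% without. In the top 25% they were 74.1% with and 94.3% without, and in the lowest 6.88% with and 6.81% without. Within the third 25% median H3K4me3 was 7.23 RPKM with H3K27me3 and 9.10 RPKM without, and within the second 1.82 and 1.35 RPKM. Across all members H3K27me3 correlated with RNA at −0.421, −0.472 and −0.481 at 1000, 10000 and 100000 cells.

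**Figure D5:**
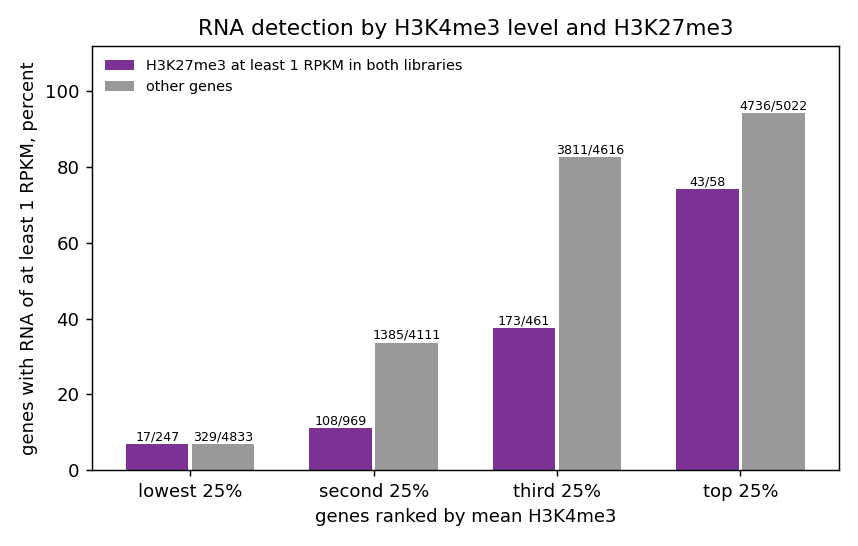
Share of genes with RNA of at least 1 RPKM (vertical axis, percent) in 4 equal groups of genes by mean H3K4me3 (horizontal axis), for genes with H3K27me3 of at least 1 RPKM in the 10000-cell and 100000-cell libraries and for the other genes, with counts above the bars. In the third 25% 173 of 461 genes with H3K27me3 had such RNA, against 3811 of 4616 other genes.

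CpG content of the promoter was set against both measures. RefSeq promoters were matched for 81.1% of members off chromosome 18, for which the table holds none. The median number of CpGs in 300 bases was 2 in the lowest 25% by H3K4me3, 21 in the third and 25 in the top 25%. The second 25% had matches for 77.8% of its genes, under the 80% needed, and is not given. By RNA class the median was 2 in genes listed at 0, 20 between 1 and 10 RPKM, 23 between 10 and 100 RPKM and 20 at 100 RPKM and over. The 109 genes with high H3K4me3 and little RNA had a median of 24 CpGs, against 25 in the other genes of the top 25%. For the 47 genes with high RNA and little H3K4me3 matches reached 77.8%, so the comparison is void. TATAAA was present on either strand in 27.7% of matched promoters of the lowest 25%, 8.24% of the third and 6.99% of the top 25%. A match of these letters is a description of the sequence and not a bound site.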

How the data were processed

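The authors deposited RPKM values for H3K4me3 in 74866 start-site windows of 1 kb and, for 28373 transcript rows, RPKM of RNA over exons and of H3K27me3 within 1 kb of the start, per the file headers. Other columns give exon and gene length in base pairs, as the authors deposited them. BWA and SAMtools and the build mm9 are named in the submitters' processing notes. Versions, counting tool and filters: not given in the sources used here. A further 2 columns of another series were not used. Symbols joined the tables. Highest window and highest row stood for a gene. H3K4me3 is the plain mean of 3 libraries, so the 10000-cell library weighs most. Depth was recovered from steps between values and covers counting error only. Analyses used Python 3.11.15, pandas 2.3.3 and scipy 1.17.1, and the depth, trend and set steps were checked on simulated data. With 1 library per group no p-values were computed. Genes named are the 10 highest in each measure, the 15 leading genes of each set off the trend (for the high-RNA set also those with an NM accession) and the highest and lowest of each list. The members, the 25 lists and the limits were chosen with earlier results of these data known, and the running median was added after seeing the data. Promoters are RefSeq, GRCm38.p6, of which no coordinates were joined to mm9.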

Additional observations from a re-analysis of the deposited data

How the results depend on the processing

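No paired analysis was possible because each group used here holds 1 library and no test was made. The correlation was 0.7662 with the mean over all windows, 0.7631 with the nearest window, 0.6974 with RNA above 0 and 0.7939 with row starts inside a window. It was 0.821 without overlapping rows and 0.8282 when windows with another expressed start were also left out (both settings chosen after seeing the data). Leaving out 1 H3K4me3 library gave 0.7793 to 0.7842. The difference by RNA class lay between 4.55 and 6.23 in those runs and moved by less than the spread of single libraries under every setting tried. Genes with high H3K4me3 and little RNA numbered 46 with RNA above 0, 40 in the top 10%, 44 with RNA listed at 0, 16 without overlapping rows and 4 when other expressed starts were also left out, and 106 to 111 without 1 library. Genes with high RNA and little H3K4me3 numbered 91 with the nearest window, 118 with RNA above 0, 31 off chromosomes 1, 8 and 11, 28 with row starts inside a window, 19 in the lowest 10%, 346 at RNA of at least 1 RPKM and 30 without overlapping rows or other expressed starts, and 50 to 58 without 1 library. The limits were drawn anew among the genes each setting keeps. The H3K27me3 median of the first set minus that of the other genes of the top 25%, 0 RPKM as reported, was −0.01 with the nearest window or weighting by depth, 0.01 off chromosomes 1, 8 and 11, −0.005 with row starts inside a window, 0.215 without overlapping rows and 0.255 without other expressed starts as well, and −0.01 to 0 without 1 library. For the second set the difference was 0.03 RPKM, 0.01 with the mean over all windows and 0.02 to 0.04 without 1 library. The median deviation of histone genes lay between −2.25 and −1.56 and that of ribosomal protein genes between 0.66 and 1.02 under the settings tried. With the 100000-cell library alone that of ribosomal protein genes was 0.42. The cause of these shifts was not tested. Depth limits windows of under 3 reads at 5000 and 10000 cells.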

Other observations

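Genes of the RNA table without an H3K4me3 window fell unevenly over the RNA range. They made up 15.6% of genes listed at 0, 7.63% of those above 0 and under 0.1 RPKM, 8.91% between 0.1 and 1 RPKM, 4.24% between 1 and 10 RPKM, 3.79% between 10 and 100 RPKM and 13.6% at 100 RPKM and over. The 15 genes without a window in the last class include Rpph1 and Rmrp, the RNA components of RNase P and RNase MRP (2963 and 2372 RPKM of RNA), and the protein-coding genes Rpl41 (267.7 RPKM), Ptma (200.3 RPKM), Rpl4 (178.8 RPKM), Hnrnpab (177.0 RPKM) and Hspd1 (147.5 RPKM). Small RNA genes gave 685 of the genes without a window, against 7 members.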
